A study of Bos taurus with 3 samples.

Results

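Opsins are the light-sensitive members of the G protein-coupled receptor superfamily, and 6 of their genes are described here in bovine retina: the cone pigments OPN1SW and OPN1LW, the ganglion cell pigment OPN4, the neuropsin OPN5, and the photoisomerase-type opsins RGR and RRH. They were chosen as the rows of the deposited expression table that carry these 6 symbols, out of 13574 listed genes. Poly(A) RNA from retinas of cattle of mixed strain, collected between 7 and 10 in the morning, was sequenced in 3 libraries that form 1 group, each made from pooled total RNA. The labels give no treatment, genotype or age, and do not say whether the libraries came from separate animals, so the SDs below measure only the spread among these libraries. All levels are FPKM, the fragments of a gene scaled to its length in kilobases and to the read depth of its library.

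An opsin holds a retinal chromophore in its binding pocket, and absorption of a photon changes the shape of that chromophore. In the cone opsins the active receptor then turns on transducin, which starts the phototransduction cascade of the outer segment. Melanopsin, the product of OPN4, marks the intrinsically photosensitive ganglion cells, which set the body clock and the pupil reflex, and signals through a Gq-type pathway in mouse. RGR and RRH (peropsin) bind the all-trans form of retinal. RGR, found in Müller glia and in the retinal pigment epithelium, is known for turning it into the 11-cis form in light. RRH is known as an opsin of the pigment epithelium, a layer that lies against the retina but is not part of the neural tissue.

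The libraries had 36656987, 39011741 and 49102476 reads as their denominators, read back from the FPKM values. The tissue label was matched by its markers. A mean of at least 100 FPKM was reached by 13 of 13 measured rod markers and by 3.81% of all listed genes. Library 2 stood apart in XIST, a noncoding RNA made from an inactive X. It had 3987, 3 and 3628 reads in libraries 1, 2 and 3, so the mix of animals differed. For that reason the opsin means are also given without library 2. The cone markers PDE6H, at 466, 94.4 and 313 FPKM, and GNAT2, at 42.0, 27.0 and 43.8 FPKM, were lowest in library 2 too. Of the 9 measured cone markers 2 were lowest and 5 highest there, counts not set against the share of all genes. The single group offers no contrast of conditions. A sign-flip test on 3 libraries, exact and two-sided, cannot give a p below 0.25, so the opsins were described without tests. The 6 opsins were set against each other, against the other listed genes, and between libraries.

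The opsins fell into a high set of RGR, OPN1LW and OPN1SW and a low set of OPN4, OPN5 and RRH. The high set held 99.6% ± 0.0898 (SD, n = 3) of the summed FPKM of the 6 genes, and the widest step, between OPN1SW and OPN4, was between 54.7-fold and 79.8-fold in each library. Of the 6 opsins 3 had a mean of at least 100 FPKM, a level reached by 3.81% of all listed genes. A mean of at least 1 FPKM was reached by 5 of 6, a count close to the 70.7% of all listed genes at that level. Together the 6 genes held 0.282%, 0.319% and 0.321% of the summed FPKM in libraries 1, 2 and 3.

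**Figure D1:**
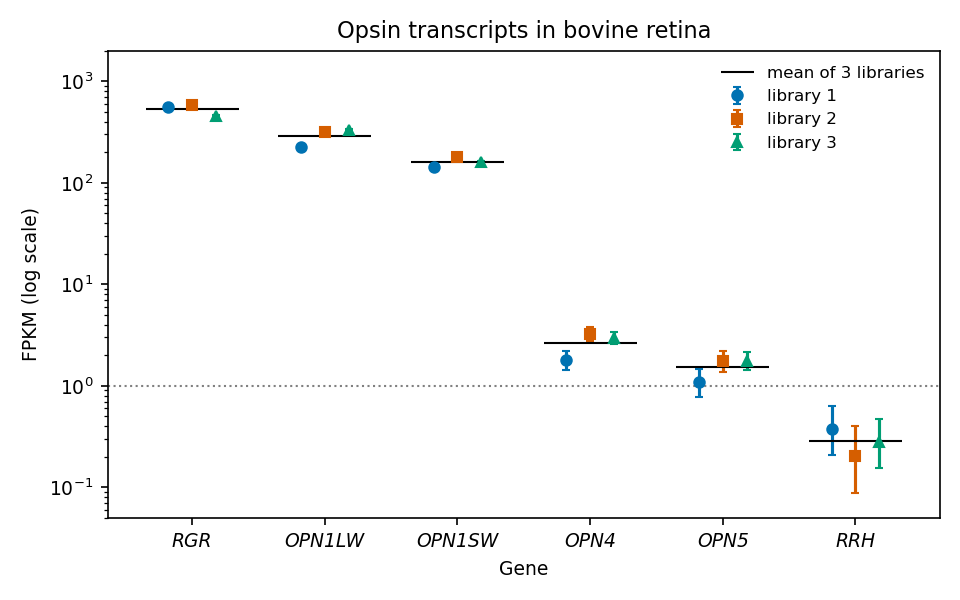
FPKM of each opsin (log scale) in libraries 1, 2 and 3, with exact 95% Poisson intervals on the reads as error bars, which cover counting error only, and the mean of 3 libraries as a line. RGR, OPN1LW and OPN1SW lie between 142 and 587 FPKM in every library, while OPN4, OPN5 and RRH stay at or below 3.25 FPKM; the dotted line marks 1 FPKM.

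RGR was the highest of the 6 opsins, with 560, 587 and 460 FPKM in libraries 1, 2 and 3. Libraries 1 and 2 were close to each other, and library 3 was the lowest. The mean was 536 FPKM ± 67.2 (SD, n = 3), or 510 FPKM without library 2. RGR ranked 41, 34 and 44 in the respective libraries and 37 by its mean, and it held 0.165% ± 0.0102 of all summed FPKM. These values rested on 28985, 32306 and 31843 reads, so counting error was small: the read ratio of library 3 to library 2 was 0.783 with an exact 95% interval of 0.771 to 0.795. RGR was thus 94.5-fold above the median listed gene, which had a mean of 5.67 FPKM.

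OPN1LW, the opsin of the long-wavelength cones, had 223, 314 and 333 FPKM in libraries 1, 2 and 3. Library 1 was well below the other libraries, which lay within 1.06-fold of each other. The mean was 290 FPKM ± 59.1 (SD, n = 3), or 278 FPKM without library 2. Its rank moved from 180 in library 1 to 112 in library 2 and 72 in library 3, and was 107 by the mean. The underlying reads were 10189, 15288 and 20417.

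OPN1SW, the opsin of the short-wavelength cones, had 142, 179 and 161 FPKM in libraries 1, 2 and 3. Library 1 was again the lowest, and the spread was narrower than for OPN1LW. The mean was 161 FPKM ± 18.2 (SD, n = 3), or 152 FPKM without library 2, and the gene ranked 354, 260 and 224. The reads were 5479, 7318 and 8315. Each library put OPN1LW above OPN1SW, and the ranges of the genes over the libraries did not overlap.

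**Figure D2:**
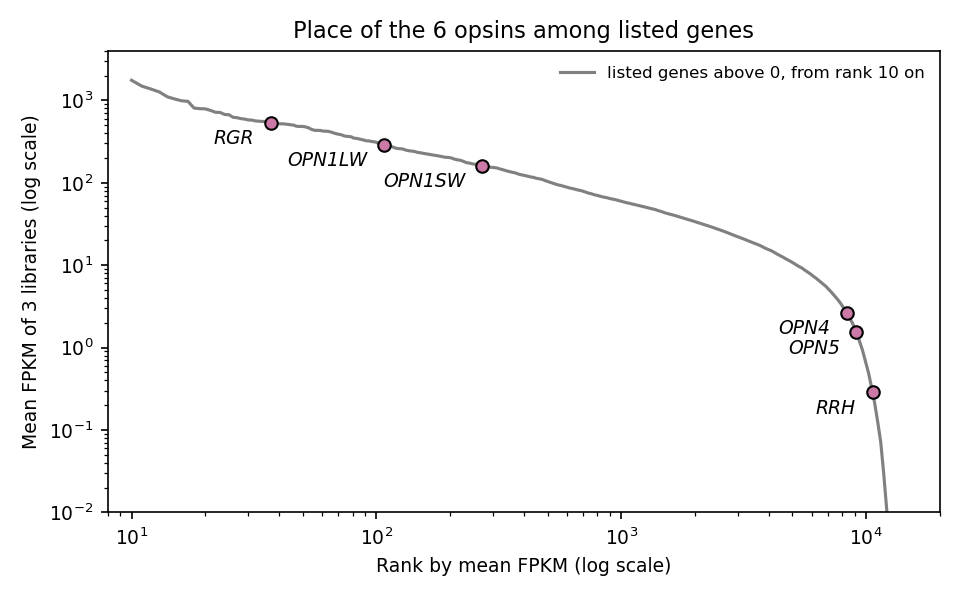
Mean FPKM over 3 libraries (log scale) against rank (log scale) for listed genes above 0 from rank 10 on (grey line), with the 6 opsins as points. RGR at rank 37, OPN1LW at 107 and OPN1SW at 271 sit on the upper part of the curve, and OPN4 at 8331, OPN5 at 9139 and RRH at 10631 on its steep lower part.

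OPN4 was the highest of the low set, with 1.78, 3.25 and 2.95 FPKM in libraries 1, 2 and 3. Libraries 2 and 3 were alike within counting error, with a read ratio of 0.908 and an exact 95% interval of 0.741 to 1.11, and library 1 was lower than both. The mean was 2.66 FPKM ± 0.772 (SD, n = 3), or 2.37 FPKM without library 2. The gene was read from 94, 182 and 208 reads and ranked 9004, 7807 and 8139, below the median listed gene at 0.469 times its level.

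OPN5, a short-wavelength opsin known in mouse from a set of retinal ganglion cells, had 1.08, 1.76 and 1.76 FPKM in libraries 1, 2 and 3. Like OPN4, it had its lowest value in library 1. The mean was 1.54 FPKM ± 0.395 (SD, n = 3), or 1.42 FPKM without library 2, from 42, 73 and 92 reads. OPN4 was 1.65-fold, 1.84-fold and 1.67-fold above OPN5 within libraries 1, 2 and 3. In library 1 the 95% Poisson intervals of the pair overlapped, at 1.44 to 2.18 FPKM for OPN4 and 0.778 to 1.46 FPKM for OPN5, whereas in libraries 2 and 3 they did not.

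RRH had the lowest level of the 6, with 0.377, 0.202 and 0.281 FPKM in libraries 1, 2 and 3. It was read from 14, 8 and 14 reads, above the floor of 3 reads in each library. The mean was 0.287 FPKM ± 0.0873 (SD, n = 3), or 0.329 FPKM without library 2, and 21.7% of listed genes were lower. The libraries could not be told apart at this depth, since the read ratio of library 2 to library 1 was 0.537 with an exact 95% interval of 0.195 to 1.37.

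The order RGR, OPN1LW, OPN1SW, OPN4, OPN5, RRH was the same in each of the 3 libraries, for 5 of 5 neighbouring pairs. The narrowest gap on the scale of log2(FPKM + 1) was between OPN4 and OPN5, at 0.52 ± 0.10 (SD, n = 3), a scale that understates the difference of low genes. OPN5 stood 2.86-fold, 8.71-fold and 6.27-fold above RRH in FPKM in libraries 1, 2 and 3. Between RGR and OPN1LW the gap was 0.90 ± 0.43 (SD, n = 3) in log2(FPKM + 1), the widest spread of the 5 gaps. In FPKM, RGR was 2.51-fold above OPN1LW in library 1, 1.87-fold in library 2 and 1.38-fold in library 3. The share of RGR in the FPKM of the 6 opsins was accordingly 60.3%, 54.1% and 47.9%, and that of OPN1LW 24.0%, 29.0% and 34.8%.

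The relation of the cone opsins to each other also differed between libraries. OPN1SW made up 39.0%, 36.2% and 32.6% of the summed cone opsin FPKM in libraries 1, 2 and 3, a mean of 35.9% ± 3.20 (SD, n = 3). Library 1, which had the least cone opsin in all at 365 FPKM against 493 and 495 FPKM, had the highest short-wavelength share. The log2 ratio of OPN1LW over OPN1SW was 0.64, 0.81 and 1.04 in libraries 1, 2 and 3. The gene models bear on this ratio. The length used for OPN1SW, 1050 bases, is a multiple of 3 while that of OPN1LW, 1247 bases, is not, and the models of OPN4, OPN5 and RRH are multiples of 3 as well. So 4 of the 6 opsin models could be coding sequence alone, against 36.4% of all listed models with a length that is a multiple of 3. Counted as reads not divided by length, the mean log2 ratio of OPN1LW over OPN1SW was 1.08.

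Against the other genes of the cone the opsins took a middle place. The 9 measured cone markers other than the opsins all had a mean of at least 1 FPKM, against 70.7% of all listed genes. Their median was 37.6 FPKM. ARR3, the cone arrestin that ends opsin signalling, had 518, 624 and 492 FPKM in libraries 1, 2 and 3 and exceeded OPN1LW in each. GNB3, the cone transducin beta subunit, had 346 FPKM ± 67.7, and GNGT2, the gamma subunit, 267 FPKM ± 38.2 (SD, n = 3). GNAT2, the cone transducin alpha subunit that the opsins activate, had 42.0, 27.0 and 43.8 FPKM, so that OPN1LW was 5.30-fold, 11.6-fold and 7.61-fold above it. PDE6C, the catalytic subunit of the cone phosphodiesterase, had 18.3, 23.3 and 22.7 FPKM, and OPN1LW stood 12.2-fold, 13.5-fold and 14.7-fold above it. The opsin kinase GRK7 had 16.4 FPKM ± 1.21 and the channel subunit CNGA3 4.36 FPKM ± 0.441 (SD, n = 3). Of the wider list of cone phototransduction partners 15 of 17 names were measured, all 15 at a mean of at least 1 FPKM, with a median of 104 FPKM against 5.67 FPKM over all genes. Its highest members were GUCA1B and GUCA1A, calcium sensors of guanylate cyclase that rods also use, at 1372 FPKM ± 128 and 807 FPKM ± 215 (SD, n = 3). The median of this wider list is therefore not a level of cones alone.

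**Figure D3:**
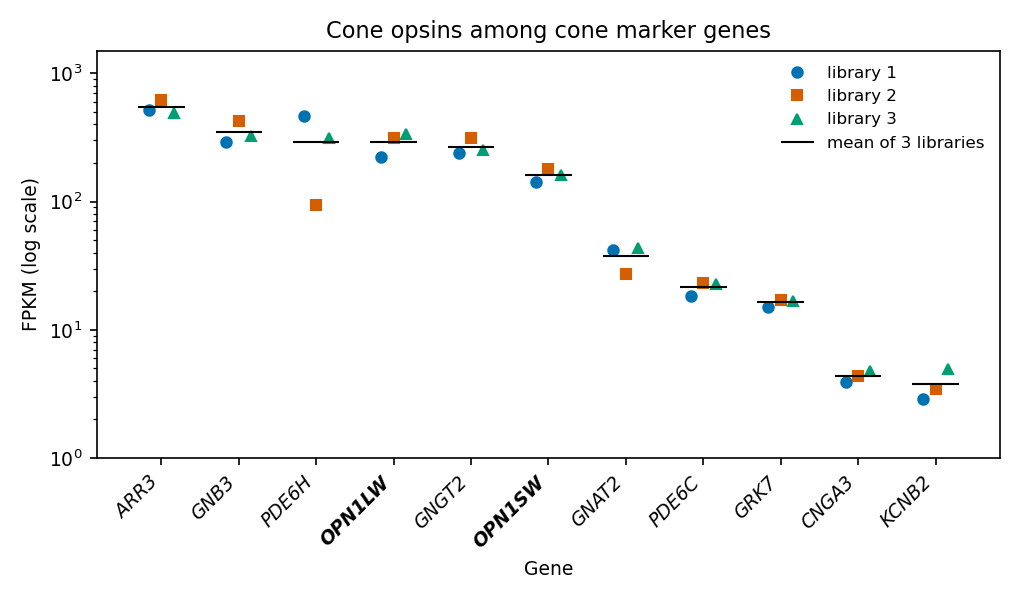
FPKM (log scale) of the cone opsins (bold) and of 9 other cone markers in libraries 1, 2 and 3, with the mean as a line. OPN1LW and OPN1SW lie with ARR3, GNB3, PDE6H and GNGT2 above 90 FPKM, while GNAT2, PDE6C, GRK7, CNGA3 and KCNB2 are below 50 FPKM; PDE6H has 94.4 FPKM in library 2 and 466 in library 1.

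Transcription factors and cofactors known to act on photoreceptor genes, cone opsins among them, were measured for 13 of 17 names. All 13 had a mean of at least 1 FPKM, against 70.7% of all listed genes, with a median of 30.3 FPKM. CRX, a homeobox activator of photoreceptor genes, had 650, 483 and 668 FPKM in libraries 1, 2 and 3. NR2E3, known in mouse to hold down cone genes in rods, had 168 FPKM ± 11.7, and NEUROD1 had 102 FPKM ± 5.61 (SD, n = 3). RXRG, a retinoid X receptor that in mouse takes part in the patterning of cone opsins, had 23.4, 35.7 and 31.9 FPKM. It was lowest in library 1, as both cone opsins were. Of all 13 regulators 4 were lowest in library 1, 6 in library 2, CRX among them, and 3 in library 3. Of all genes averaging 1 FPKM or more, 24.5% were lowest in library 1 and 43.3% in library 3.

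RGR was set beside genes of retinoid handling and of its known cell types. All 14 measured names of the 16 on the retinoid list had a mean of at least 1 FPKM, against 70.7% of all listed genes. Their median was 23.8 FPKM. RBP3, the retinoid carrier between photoreceptors and the pigment epithelium, had 714, 964 and 1241 FPKM, RDH12, a photoreceptor retinol dehydrogenase, 483 FPKM ± 51.7 (SD, n = 3), and RLBP1, the binding protein of 11-cis retinal in Müller glia and pigment epithelium, 394, 483 and 348 FPKM. RGR was 1.42-fold, 1.22-fold and 1.32-fold above RLBP1 in libraries 1, 2 and 3. It was 20.1-fold, 28.2-fold and 28.7-fold above RDH5, a retinol dehydrogenase best known from the pigment epithelium, which had 27.8, 20.8 and 16.0 FPKM. Of the Müller glia markers 15 of 18 names were measured, all at a mean of at least 1 FPKM, against the same 70.7%. Their summed level was 2915, 3484 and 2816 FPKM in libraries 1, 2 and 3. CLU and GLUL were the highest of them, at 560 FPKM ± 194 and 433 FPKM ± 68.7 (SD, n = 3). RGR amounted to 19.2%, 16.8% and 16.3% of that sum.

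Pigment epithelium markers other than RRH were low by comparison. Of 19 names 14 were measured, 12 of them at a mean of at least 1 FPKM, against 70.7% of all listed genes. None had a mean of 100 FPKM or more, none was listed at 0 in all libraries, and the median was 3.62 FPKM. Their summed level was 107, 80.9 and 59.7 FPKM in libraries 1, 2 and 3, and 9 of the 14 were highest in library 1 and 9 lowest in library 3. Among all genes averaging 1 FPKM or more, 45.3% were highest in library 1 and 43.3% lowest in library 3. RGR alone exceeded the sum of these markers in each library, at 522%, 726% and 770% of it. RRH amounted to 0.357% ± 0.111 (SD, n = 3) of the sum. Its highest value was in library 1, but its 14, 8 and 14 reads could not tell the libraries apart. RGR was lowest in library 3, where the summed pigment epithelium, Müller glia, ganglion cell and cone markers were each lowest too. The rod marker sum was lowest in library 1, at 17332, 21994 and 18219 FPKM, and so was the cone sum without PDE6H. Library 3 also had the lowest summed FPKM of all listed genes, at 298958 against 329947 and 339882 in libraries 1 and 2. After scaling to equal sums RGR had 548, 558 and 496 FPKM in libraries 1, 2 and 3. Its share of the Müller glia sum spread 1.18-fold over the libraries and its ratio to the pigment epithelium sum 1.48-fold. The part of pigment epithelium RNA in either opsin's level was not tested. In these bulk samples, fewer cells of a type and less RNA per cell cannot be told apart.

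OPN4 and OPN5 were below most general ganglion cell genes. The 11 measured names of the 16 ganglion cell markers had a mean of at least 1 FPKM, against 70.7% of all listed genes. Their median was 18.8 FPKM and their sum 1189, 1258 and 1101 FPKM in libraries 1, 2 and 3. The neurofilament gene NEFL had 353, 449 and 465 FPKM, SNCG had 367 FPKM ± 93.3 and STMN2 173 FPKM ± 18.5 (SD, n = 3). OPN4 amounted to 0.150%, 0.258% and 0.268% of the sum and OPN5 to 0.0907%, 0.140% and 0.160%. Of the 11 markers, POU4F3 and EBF1 had means below that of OPN4, at 2.11 FPKM ± 0.394 and 2.02 FPKM ± 0.408 (SD, n = 3). In library 1 both lay above OPN4, at 2.39 and 1.83 FPKM against 1.78 FPKM. The sum was lowest in library 3, whereas both opsins were lowest in library 1. POU4F2, a transcription factor of many ganglion cells, had 5.49, 7.77 and 8.53 FPKM and stood 3.08-fold, 2.39-fold and 2.89-fold above OPN4.

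Genes known in mouse from the photosensitive ganglion cells were nearer to the level of OPN4. Of 10 names other than OPN4 itself 8 were measured, with a median of 6.87 FPKM. A mean of at least 1 FPKM was reached by 6 of the 8, a count close to the 70.7% of all listed genes. RASGRP1, IRX6 and BARHL2 led with 10.5 FPKM ± 1.67, 10.4 FPKM ± 0.999 and 9.11 FPKM ± 0.506 (SD, n = 3). EOMES, a factor that these cells need in mouse, had 0.762, 0.728 and 1.15 FPKM, and TBX20 had 0.106, 0.0995 and 0.211 FPKM. OPN4 lay above both of them in each library. The sum of the 8 markers was 41.7, 45.9 and 49.9 FPKM in libraries 1, 2 and 3, and OPN4 amounted to 4.27%, 7.07% and 5.91% of it. That sum was lowest in library 1, as OPN4 was, but 4 of the 8 markers were lowest in library 1 and 4 in library 2. Of all genes averaging 1 FPKM or more, 24.5% were lowest in library 1 and 43.3% in library 3. The part of these bulk levels that came from photosensitive ganglion cells was not tested. Among signalling partners of melanopsin 14 of 16 names were measured, with a median of 4.39 FPKM. Of these, 11 had a mean of at least 1 FPKM, again close to the 70.7% of all listed genes. The highest were PRKCZ, an atypical protein kinase C, at 56.0 FPKM ± 5.16, ADRBK1, a receptor kinase, at 20.1 FPKM ± 1.31, and ARRB1, a beta-arrestin, at 17.9 FPKM ± 4.69. TRPC7 and TRPC6, cation channels that carry the melanopsin response in mouse, had 4.46 FPKM ± 0.773 and 0.386 FPKM ± 0.110 (SD, n = 3).

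Between libraries, 4 of the 6 opsins were lowest in library 1, namely OPN1SW, OPN1LW, OPN4 and OPN5. Of the 9599 genes that averaged 1 FPKM or more 24.5% were lowest in library 1, and 45.3% were highest there, among them none of the 5 opsins that passed this filter. RRH, which did not pass it, was highest in library 1. These opsins were still lowest there after scaling to equal sums and by the median ratio. Library 1 also had 6 of the 9 cone markers at their lowest, though their sum was 1598, 1527 and 1473 FPKM because PDE6H was high there. Without PDE6H, a choice made after its values were seen, the sum was 1132, 1432 and 1160 FPKM. OPN1SW then amounted to 12.6%, 12.5% and 13.9% of the cone marker sum and OPN1LW to 19.7%, 21.9% and 28.7%, so that the share of OPN1LW spread more widely, 1.46-fold against 1.11-fold.

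In size these differences were mostly modest. Of the 5 opsins that averaged 1 FPKM or more, OPN4 was at least 1.5-fold higher in library 2 than in library 1 on the scale of FPKM + 1, as were 1.46% of the 9599 genes, and 9.24% of genes were that far apart in either direction. Its read ratio was 1.82 with an exact 95% interval of 1.41 to 2.36. The fold on the scale of FPKM + 1 was 1.53, and after scaling to equal sums it was 1.49 and no longer passed. Without further scaling no opsin passed 1.5-fold on that scale between libraries 1 and 3, where 12.3% of genes did in either direction, or between libraries 2 and 3, where 7.42% did. Between libraries 1 and 3 OPN4 had a read ratio of 1.65 with an interval of 1.29 to 2.13. OPN1LW came close between libraries 1 and 3, at 0.58 on the scale of log2(FPKM + 1), with an exact 95% interval of its read ratio from 1.46 to 1.53. It passed there after scaling to equal sums, at 1.65-fold, and by the median ratio, at 1.62-fold, and OPN4 passed there after scaling to equal sums, at 1.52-fold. OPN5 had a read ratio of 1.64 for library 3 over library 1 with an interval of 1.12 to 2.42, which at its low level came to less than 1.5-fold once 1 was added. The SD of log2(FPKM + 1) over the libraries was 0.31 for OPN1LW and 0.33 for OPN4, above that of 80.9% and 83.0% of the 9599 genes. For RGR it was 0.19 and for OPN1SW 0.16, near the median of 0.19.

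**Figure D4:**
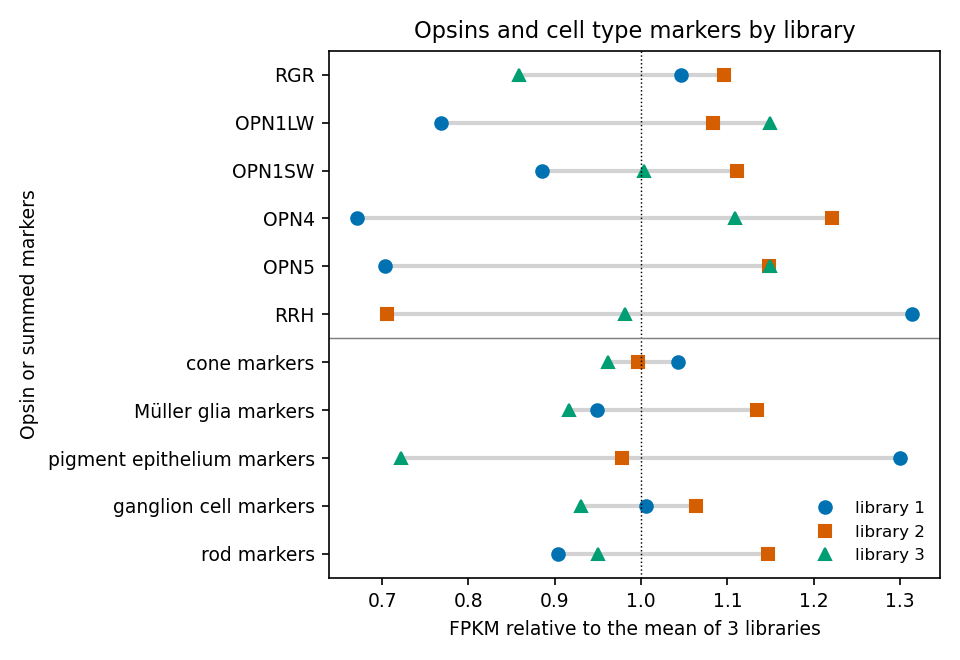
FPKM of each opsin (top) and summed FPKM of cell type markers (bottom) in each library, relative to the mean of 3 libraries; the grey bar spans the libraries. OPN1LW, OPN1SW, OPN4 and OPN5 have library 1 at the left, between 0.671 and 0.885 of their means. RRH, the pigment epithelium markers and the cone markers have it at the right, at 1.31, 1.30 and 1.04. For RRH, with 14, 8 and 14 reads, the libraries could not be told apart.

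Genes with the most similar profile over the 3 libraries were found by the Euclidean distance between deviations of log2(FPKM + 1) from each gene's own mean, among the 5218 genes that averaged 10 FPKM or more. The measure was applied to the 3 opsins with at least 100 reads in every library. Nearest to OPN1SW were PRCP, ATP9B and DDX23, nearest to OPN1LW were ADNP, TRAPPC9 and CLSTN3, and nearest to RGR were TXNDC12, NPRL2 and AHSA1. With 3 libraries such likeness is common: 291, 61 and 425 genes lay within a distance of 0.1 of OPN1SW, OPN1LW and RGR.

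The genomic surroundings were looked up by name in the ARS-UCD2.0 assembly, after the values were seen. RGR overlaps 1 other gene there, which is not in the expression table under its name in that assembly. By such names none of the 6 opsins overlaps a gene of the table. Older names of the overlapping genes were not matched, and the sources used here do not give the authors' own annotation. RRH lies next to LRIT3, a leucine-rich repeat gene of the retina, which had 15.2, 10.9 and 20.4 FPKM and was 40.4-fold, 53.8-fold and 72.6-fold above RRH in libraries 1, 2 and 3. RGR lies next to the related LRIT1, which had 24.0, 24.5 and 30.6 FPKM, so that RGR was 23.3-fold, 23.9-fold and 15.0-fold above it. On the other side of RRH, GAR1, a small nucleolar ribonucleoprotein gene, had 11.3 FPKM ± 2.95 (SD, n = 3). The low level of RRH thus had higher values on both sides.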

How the data were processed

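Retinal poly(A) RNA was sequenced in 3 libraries, each from pooled total RNA, per the labels' protocols. CASAVA 1.8.1, the aligner GSNAP and the counter HTSeq are named, per the submitters' processing notes. Their settings, the build, the annotation, strandedness and the treatment of multiply mapped reads were not given in the sources used here. Values are FPKM per gene and library, computed by the authors, per the file headers, with 1 gene length per gene. Whole reads and denominators were recovered from FPKM times length: values of up to 2000 reads came out whole within 0.1 reads in 100% of cases in each library. Of the denominators 59.1%, 61.0% and 57.6% lay on listed genes. The recovery was tested on simulated data. Intervals are exact 95% Poisson or Clopper-Pearson intervals and, like the floor of 3 reads, cover counting error only, since no molecular identifiers mark single molecules.

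The members and the 10 gene lists were chosen with earlier results of these data known. The rule for named genes took the 6 opsins, the 3 highest members of each list and the 3 most similar genes of each opsin with enough reads. The rod list served only to check the tissue, so its members are not named, and of the pigment epithelium list RDH5 is. Other genes (GNGT2, GNAT2, PDE6C, GRK7, CNGA3, KCNB2, RXRG, POU4F2, POU4F3, EBF1, EOMES, TBX20, TRPC6, TRPC7, XIST and the genomic neighbours) were chosen after their values were seen. Some genes are not reported here, though they count in ranks, shares and sums. Counts of names on a list include older synonyms. The 6 opsins matched RefSeq names of ARS-UCD2.0, and no sequences were used here. Of per-sample columns 0 were left unused. Analyses used Python 3.11.15, pandas 2.3.3 and SciPy 1.17.1. Alternatives were other scalings, pseudocounts, thresholds, lengths reduced by 199 bases, and leaving out each library.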

Additional observations from a re-analysis of the deposited data

How the results depend on the processing

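The order of the 6 opsins held for 5 of 5 neighbouring pairs under each alternative run, and 34 of 36 opsin levels moved by less than 1 SD. Leaving out 1 of 3 libraries cannot move a mean by 1 SD or undo an order found in each library. Those runs therefore do not test either result. Both scalings lower some libraries and raise others, so they leave a mean nearly fixed. The effective lengths were the runs that could move a level freely. There OPN1SW and RGR moved by more than 1 SD, to 198 and 624 FPKM, and the other opsins by less. The summed share of 0.307% became 0.218% of listed reads and 0.358% without the 10 highest genes in the denominator. At a threshold of 5 FPKM 3 opsins were counted in place of 5. The log2 ratio of OPN1LW over OPN1SW, 0.83, was 1.08 with reads not divided by length. Over the 3 comparisons between libraries, 1 combination of opsin and library pair was at least 1.5-fold apart. The number became 4 with a pseudocount of 0.1, from the 2 opsins OPN4 and OPN5, 2 with either scaling and 0 at 2-fold. Without each replicate in turn the share was 0.300% to 0.320%, the ratio 0.73 to 0.93, and 5 opsins reached 1 FPKM. Scaling to equal sums moved the median log2 difference between libraries by -0.038 to 0.16, and scaling by the median ratio by 0.028 to 0.10. The cause of the changes between settings was not tested, other than that a smaller pseudocount widens the folds of low genes. Depth limits RRH, OPN5 and OPN4. No paired analysis was possible because there is only 1 group.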
